A study of Mus musculus with 6 samples.

Results

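The Gimap genes encode GTPases of immunity-associated proteins, a family of GTP-binding proteins that sit mostly on the membranes of organelles in lymphocytes. The 8 genes Gimap1, Gimap3, Gimap4, Gimap5, Gimap6, Gimap7, Gimap8 and Gimap9 were followed among 19938 genes measured on 6 arrays. Every member had exactly 1 row of the array table with its own symbol, so no row shared between genes was needed and no choice between rows arose. The members were chosen by their symbols, and the family itself was chosen on the measured fold change of these arrays, after Gimap8 had been seen among the lower genes. Its values therefore describe the comparison and are not independent evidence for it.

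Each array held RNA from the sorted marrow of 1 mouse, 3 labelled p65 knockout (p65 KO) and 3 labelled p65 wild-type (p65 WT). The protein p65 (RelA) belongs to NF-κB, a transcription factor of immune and inflammatory signalling. The study's title places the deletion in the hematopoietic compartment, while the labels name neither the deleter strain nor the age of the mice. In both groups the sorted cells lacked lineage markers and Flk2 and carried Sca-1 together with c-kit, as blood stem cells and their close progeny do.

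Gimap proteins share a GTP-binding module named AIG1 after a plant resistance gene, and they control the survival of lymphocytes. Loss of Gimap5 in mice and rats depletes T cells, and in mice it also disturbs hematopoietic stem cells. Gimap3 and Gimap5 bind members of the Bcl2 family, the regulators of mitochondrial cell death. The genes lie side by side, and in the RefSeq annotation of GRCm38.p6 the 8 members follow each other on chromosome 6 with 0 other protein-coding genes between them. In that order they run Gimap8, Gimap9, Gimap4, Gimap6, Gimap7, Gimap1, Gimap5 and Gimap3, with Gimap6 and Gimap3 on the minus strand and the other 6 on the plus strand.

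The sequences before the start sites of 4 members are shown because these members mark the range of the comparison. Gimap8 was the member that passed the test, Gimap6 and Gimap5 had large differences that missed it, and Gimap9 had nearly equal means. Each stretch is the 250 bases before the annotated start from RefSeq on GRCm38.p6, written 5′ to 3′ on the gene's own strand. The positions are chr6:48646984-48647233 (plus strand, the upstream of its 2 listed starts), chr6:48708245-48708494 (minus strand), chr6:48745947-48746196 (plus strand) and chr6:48675885-48676134 (plus strand). Capitals mark GGAAGT, a core bound by ETS factors, and TGTGGT, a core bound by RUNX factors, on either strand; the Gimap8 and Gimap9 windows hold neither.
Gimap8: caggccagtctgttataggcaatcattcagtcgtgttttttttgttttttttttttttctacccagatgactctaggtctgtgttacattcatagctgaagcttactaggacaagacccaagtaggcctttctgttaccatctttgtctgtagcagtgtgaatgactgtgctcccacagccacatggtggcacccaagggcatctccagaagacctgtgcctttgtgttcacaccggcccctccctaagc
Gimap6: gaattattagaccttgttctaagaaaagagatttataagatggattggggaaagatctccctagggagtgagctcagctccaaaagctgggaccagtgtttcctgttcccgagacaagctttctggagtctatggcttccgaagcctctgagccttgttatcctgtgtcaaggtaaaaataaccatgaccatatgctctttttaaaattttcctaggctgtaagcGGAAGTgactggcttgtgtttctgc
Gimap5: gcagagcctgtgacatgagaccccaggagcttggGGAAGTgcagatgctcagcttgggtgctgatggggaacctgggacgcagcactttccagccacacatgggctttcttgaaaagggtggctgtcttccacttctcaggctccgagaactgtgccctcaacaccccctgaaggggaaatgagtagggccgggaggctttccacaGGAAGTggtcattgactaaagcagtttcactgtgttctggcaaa
Gimap9: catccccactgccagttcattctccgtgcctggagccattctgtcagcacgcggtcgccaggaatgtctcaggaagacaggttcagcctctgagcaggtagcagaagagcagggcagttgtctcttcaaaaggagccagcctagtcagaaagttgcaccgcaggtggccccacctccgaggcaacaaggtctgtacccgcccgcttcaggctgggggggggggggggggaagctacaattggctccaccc

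Over all members there were 9 such windows, 2 for Gimap8 and 1 for each other gene. The NF-κB consensus had 0 matches in the 9 windows on either strand, and 7.25% of all 32851 promoter windows of this length hold it. GGAAGT was found before Gimap5, with 2 matches, and before Gimap6, with 1, and 19.7% of all windows hold it. TGTGGT was found before Gimap1, Gimap4 and Gimap7, with 1 match each, and 14.0% of all windows hold it. AGATAA, a core bound by GATA factors, had 0 matches in the members and occurs in 9.99% of all windows. The E-box CANNTG, bound by basic helix-loop-helix factors, was found before 6 of the 8 genes and in 66.2% of all windows. These are matches of letters in short windows and were not tested for binding.

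The values are log2 signals, so a difference of 1 is a doubling of signal. Signals of different genes come from different probes and are not ranked against each other. The groups were compared by limma, p65 KO over p65 WT, with Benjamini-Hochberg adjustment over all 19938 genes and a threshold of 0.05. Rela, the gene of p65, had signals of 7.33, 7.48 and 7.35 in p65 KO, against 7.52, 7.89 and 7.92 in p65 WT. Its log2 fold change of -0.39 (SE 0.16) did not pass (limma adjusted p = 0.209), though the groups did not overlap. Probes outside a deleted part can keep their signal, and whether that held here was not tested. Array SDs were 2.26 to 2.29 in p65 KO and 2.03 to 2.22 in p65 WT. The lowest SD, 2.03, was that of p65 WT replicate 1, which correlated with the other arrays at 0.924 to 0.943, against 0.974 to 0.989 among the rest. Results are therefore also given without that array.

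Gimap transcripts were lower in p65 KO cells for 7 of the 8 members, by 0.37 to 1.26 on the log2 scale, and Gimap9 had nearly equal means. Gimap8 fell past the threshold, 7 members did not pass, and 0 rose, where 0.818% of all genes passed in either direction. The median log2 fold change of the 8 members was -0.70, against -0.04 over all 19938 genes. Of all genes, 0.13% fell past the threshold. For 7 of the 8 members every p65 KO value lay below every p65 WT value, which held for 15.4% of all genes, while 0 members and 19.2% of all genes had every p65 KO value above every p65 WT value. A negative log2 fold change was found for 7 members and for 54.1% of all genes. An unadjusted p under 0.05 with a lower value in p65 KO was reached by 7 members and by 7.76% of all genes. With the replicate number as a block 3 members fell (0.451% of all genes), and without p65 WT replicate 1, 4 members fell (1.38% of all genes). No inference is drawn from these shares, since the family was chosen with the same comparison known.

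**Figure D1:**
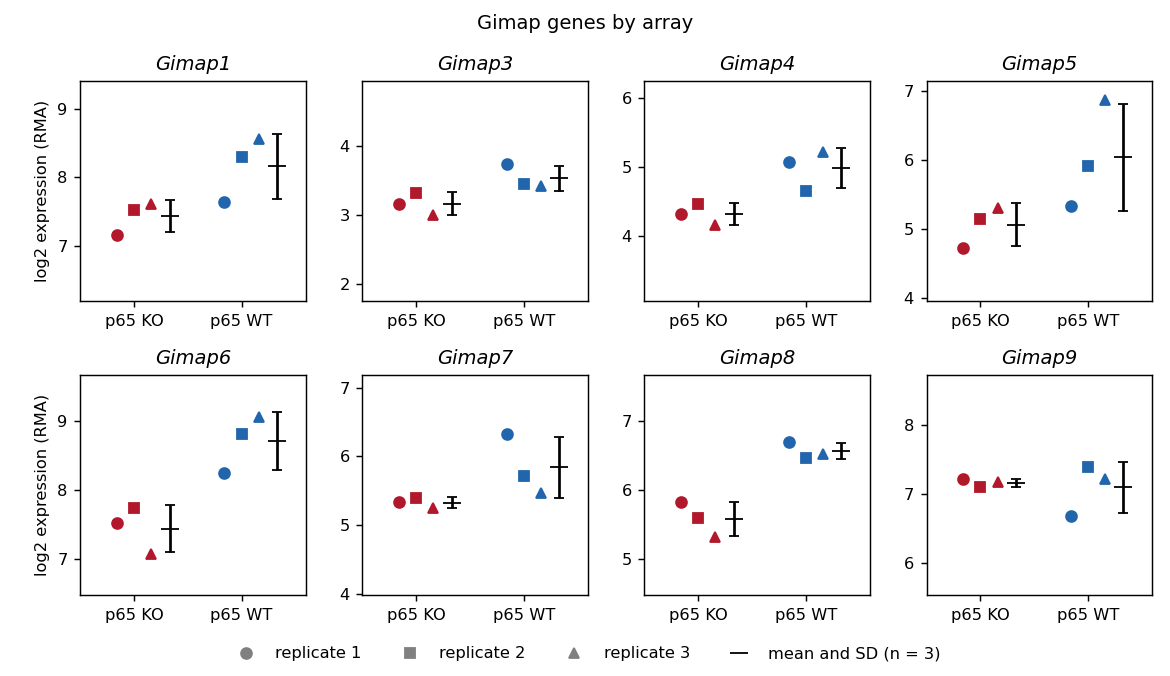
Log2 expression (y axis) of each Gimap gene in the 3 p65 KO arrays (red) and the 3 p65 WT arrays (blue), with point shape giving the replicate number and black bars the mean and SD (n = 3). The y axis spans the same number of log2 units in each panel. The groups do not overlap for 7 genes, and Gimap9 overlaps.

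Gimap8 encodes an unusually large member that carries several GTP-binding modules in a row. Its signals were 5.83, 5.59 and 5.32 in p65 KO, against 6.70, 6.47 and 6.53 in p65 WT. The groups were clearly apart, with a gap of 0.64 between the highest p65 KO and the lowest p65 WT value. It averaged 5.58 ± 0.25 in p65 KO and 6.57 ± 0.12 in p65 WT (SD, n = 3 each). The log2 fold change was -0.99 (SE 0.17, 95% interval -1.37 to -0.60, limma adjusted p = 0.0476), so the wild-type signal was 1.98-fold that of the knockout. The call was close to the threshold and was lost when any 1 of the p65 KO arrays (limma adjusted p = 0.153, 0.233 and 0.263), p65 WT replicate 2 (0.0751) or p65 WT replicate 3 (0.0862) was left out. Its log2 fold change then lay between -1.11 and -0.86. Without any 1 of the p65 KO arrays limma placed 0 of all 19938 genes past the threshold as lower, with 663 to 877 at an unadjusted p under 0.05. The Gimap8 call was also lost with quantile normalization (log2 fold change -0.91, limma adjusted p = 0.0624) and with arrays centred on their medians (-0.84, limma adjusted p = 0.0585). Without p65 WT replicate 1 the call was kept (log2 fold change -0.92, limma adjusted p = 0.0292).

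Gimap6 encodes a cytosolic member that binds Gabarapl2, a protein of the autophagosome. It had the largest difference of the family on the deposited values. Its signals were 7.52, 7.74 and 7.07 in p65 KO, against 8.25, 8.81 and 9.06 in p65 WT. All p65 KO arrays were low, replicate 3 most of all, and the gap between the groups was 0.51. The log2 fold change was -1.26 (SE 0.25, 95% interval -1.83 to -0.69), a wild-type signal 2.40-fold that of the knockout, and it did not pass (limma adjusted p = 0.0658). With the replicate number as a block Gimap6 passed (limma adjusted p = 0.0341), and it also passed without p65 WT replicate 1, at -1.49 (limma adjusted p = 0.0177).

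Gimap1 and Gimap5 are needed in mice for the survival of mature lymphocytes. Gimap5 had signals of 4.72, 5.14 and 5.31 in p65 KO, against 5.33, 5.92 and 6.87 in p65 WT. The groups were separated by 0.02 only, and p65 WT replicate 3 stood high while p65 WT replicate 1 lay next to the knockouts. The log2 fold change of Gimap5 was -0.98 (SE 0.36, 95% interval -1.81 to -0.16, limma adjusted p = 0.182). With the replicate number as a block it passed (limma adjusted p = 0.0488). It was -1.34 without p65 WT replicate 1, where it also passed (limma adjusted p = 0.0498), and -0.57 without p65 WT replicate 3. Gimap1 had signals of 7.17, 7.53 and 7.61 in p65 KO, against 7.64, 8.29 and 8.56 in p65 WT. It showed the same order of arrays in wild-type, with p65 WT replicate 1 lowest and only 0.03 above the highest knockout. Its log2 fold change was -0.73 (SE 0.25, 95% interval -1.29 to -0.16, limma adjusted p = 0.162), and -0.99 without p65 WT replicate 1, where it passed (limma adjusted p = 0.0276).

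Gimap4 encodes a member that in mice speeds the death of T cells. Its signals were 4.32, 4.47 and 4.16 in p65 KO, against 5.08, 4.66 and 5.22 in p65 WT. The groups were apart by 0.19, and the log2 fold change was -0.67 (SE 0.18, 95% interval -1.09 to -0.25, limma adjusted p = 0.116). Gimap7 belongs to the small members with a lone GTP-binding module. Its signals were 5.34, 5.40 and 5.25 in p65 KO, against 6.33, 5.72 and 5.47 in p65 WT. The knockouts lay close together, and p65 WT replicate 1 was far above the other wild-type arrays. The log2 fold change of Gimap7 was -0.51 (SE 0.22, 95% interval -1.01 to -0.01, limma adjusted p = 0.228), and it was -0.26 without p65 WT replicate 1.

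Gimap3 is a close relative of Gimap5 that in mice lies on the outer mitochondrial membrane and affects the inheritance of mitochondrial DNA. Its signals were 3.16, 3.32 and 2.99 in p65 KO, against 3.73, 3.44 and 3.41 in p65 WT. The groups were apart by 0.09, and the log2 fold change was -0.37 (SE 0.16, 95% interval -0.73 to -0.01, limma adjusted p = 0.222). As a guide to background, 3 Y-linked genes were read in arrays that all had high Xist signals (10.08 to 10.78). Kdm5d read 4.05 to 4.13 in p65 KO and 4.08 to 4.26 in p65 WT, Uty 2.94 to 3.09 in p65 KO and 3.14 to 3.46 in p65 WT, and Eif2s3y 2.33 to 2.44 in p65 KO and 2.29 to 2.50 in p65 WT. Gimap3 is in no array shown to exceed background. Gimap4 in p65 KO, at 4.16 to 4.47, lies near the highest of these background readings, 4.26 for Kdm5d. The sizes of both differences are therefore uncertain.

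Gimap9 was the exception. Its signals were 7.22, 7.10 and 7.18 in p65 KO, against 6.68, 7.39 and 7.22 in p65 WT. The knockouts fell inside the wild-type range, and p65 WT replicate 1 was the lowest of all arrays. The log2 fold change was 0.06 (SE 0.20, 95% interval -0.39 to 0.51, limma adjusted p = 0.84), and it was -0.15 without p65 WT replicate 1. Whether Gimap9 differed from the other members in its response was not tested.

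Members differed in how the wild-type arrays were ordered. Gimap1, Gimap5, Gimap6 and Gimap9 had their lowest wild-type signal in replicate 1, while Gimap3, Gimap7 and Gimap8 had their highest there. Averaged over the 8 genes, each centred on its own mean, the arrays lay at -0.37, -0.24 and -0.41 in p65 KO, against 0.19, 0.31 and 0.52 in p65 WT. At most 1 member exceeded its own mean in any p65 KO array, against 5, 8 and 7 members in p65 WT replicates 1, 2 and 3. Each mean was taken over the arrays of both groups, and for 7 members every p65 KO value lay below every p65 WT value. The split of these averages and counts between the groups therefore largely restates that separation. No inference is drawn from it, since the family was chosen on the same fold changes.

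Fold changes in these arrays vary with signal level, so the genes were also split into 10 equal classes by mean signal. The median log2 fold change of all genes was -0.20 in the dimmest class, which holds Gimap3, and -0.23 in the class of Gimap4. It was -0.18 in the class of Gimap5 and Gimap7, -0.01 in that of Gimap8 and 0.18 in that of Gimap9. It was 0.27 in the class of Gimap1 and 0.32 in that of Gimap6. Each of the 8 members lay below the median of its own class, where by definition as many genes lie below as above. Gimap9, at 0.06 with an SE of 0.20, was within its error of that median. No inference is drawn from this count, since the family was chosen on these same fold changes.

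The neighbours of the cluster were examined to see how far along the chromosome lower values extended. Of the 8 protein-coding genes on either side, 16 in all and all measured, 0 passed limma and 3 reached an unadjusted p under 0.05. These 3 were lower in p65 KO, as were 7.76% of all genes at that p. The log2 fold changes of the 16 neighbours ran from -0.71 to 0.39 with a median of -0.15, against -1.26 to 0.06 and a median of -0.70 in the cluster. The groups did not overlap, with p65 KO lower, for 5 of these 16 genes, for 7 of the 8 members and for 15.4% of all genes. Zfp775, next to Gimap8, had a log2 fold change of -0.08 (SE 0.15), and Tmem176b, next to Gimap3, of -0.06 (SE 0.16). The lowest neighbour was Gm5111 at -0.71 (SE 0.26, limma adjusted p = 0.188). Zfp775, Tmem176b and Gm5111 were picked for their place or their value after the values were seen. A separate list of 10 flanking genes is not a second set, since all but Krba1 are among these 16 neighbours. It lacks Gm5111 and Doxl1, both at an unadjusted p under 0.05. Of this list 0 passed and 1 had an unadjusted p under 0.05. Its lowest p-values belonged to Zfp467 (log2 fold change -0.59, limma adjusted p = 0.169), Krba1 (-0.33, adjusted p = 0.269) and Atp6v0e2 (-0.39, adjusted p = 0.237). Without p65 WT replicate 1 Zfp467 passed (log2 fold change -0.78, limma adjusted p = 0.0422).

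**Figure D2:**
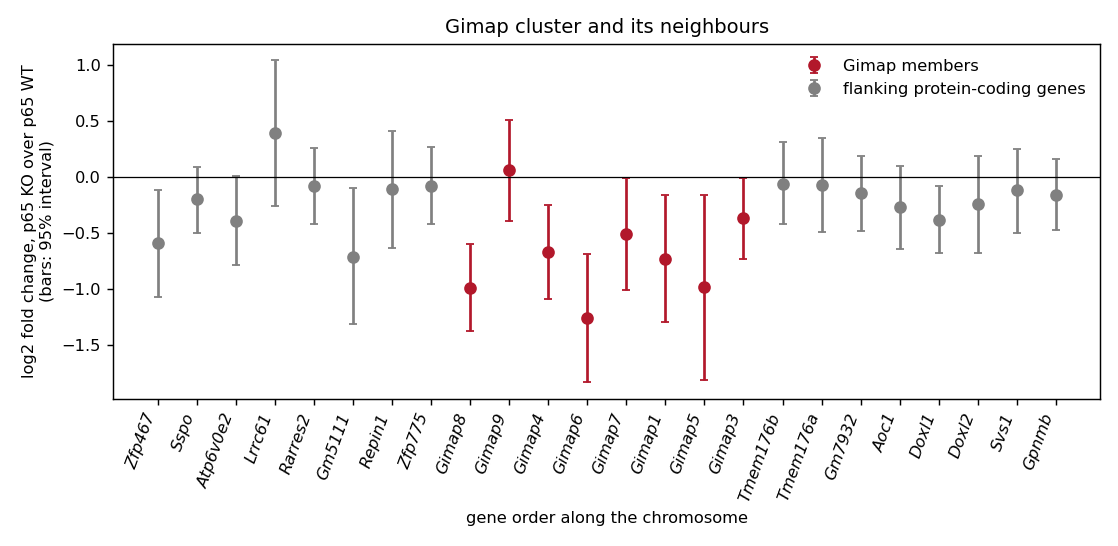
Log2 fold change of p65 KO over p65 WT (y axis, bars are 95% intervals from limma) for the 8 Gimap genes (red) and the 8 protein-coding genes on each side (grey), in their order along the chromosome (x axis, not to scale). Of the 8 members, 7 lie below 0 with intervals that do not reach it, and Gimap9 lies at 0.06. The adjacent genes Zfp775 and Tmem176b lie at -0.08 and -0.06. The intervals of the neighbours Zfp467, Gm5111 and Doxl1 also lie below 0. Intervals are not adjusted for the number of genes, and of all genes shown only Gimap8 passed the adjusted threshold.

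Among genes whose proteins bind or act with Gimap proteins, no direction passed the test. The list held Bcl2 family members, the GABARAP proteins of the autophagosome and the kinases Gsk3a and Gsk3b. Of its 11 measured genes 0 passed limma in either direction and 2, both higher in p65 KO, had an unadjusted p under 0.05. The median log2 fold change was 0.14 and, without p65 WT replicate 1, -0.01. Most of these genes have strong signals, and in the brightest class the median of all genes was 0.33. Bak1, an effector of mitochondrial cell death, averaged 10.93 ± 0.08 in p65 KO and 10.33 ± 0.32 in p65 WT (SD, n = 3 each), without overlap (log2 fold change 0.60, limma adjusted p = 0.135). Bad, which binds and blocks survival members of the family, lay 0.54 higher in p65 KO on the log2 scale (limma adjusted p = 0.162). The log2 fold change of Gabarapl1, -0.32, missed the threshold (limma adjusted p = 0.39) and passed it without p65 WT replicate 1, at -0.57 (limma adjusted p = 0.0448). Bcl2, the founding survival gene, was at 0.03 and Mcl1, on which stem cells depend, at 0.12. Gabarapl2, the partner of Gimap6, was at 0.28 (SE 0.30), and Gabarap and Gsk3b did not pass either.

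Gimap genes are expressed most in lymphocytes, so markers of lymphocytes and of other marrow cells were set beside them. In bulk samples such as these, fewer cells of a type and less RNA per cell cannot be told apart. Of 13 measured T cell genes 0 passed limma. At an unadjusted p under 0.05, 4 were lower in p65 KO, as were 7.76% of all genes. Of the 13, 12 were lower in p65 KO, with a median log2 fold change of -0.21, where 54.1% of all genes were lower. Most of these genes are dim, and the median of all genes in the 5 dimmer classes was already -0.25 to -0.18. The mean log2 signal of this list lay between 5.05 and 5.15 in p65 KO and between 5.26 and 5.56 in p65 WT, so the groups did not overlap. Cd3d, a chain of the T cell receptor complex, had signals of 4.12, 3.95 and 4.12 in p65 KO, against 4.67, 4.72 and 4.50 in p65 WT (limma adjusted p = 0.0925). It passed without p65 WT replicate 1 (log2 fold change -0.55, limma adjusted p = 0.0492). In p65 KO Cd3d is not shown to exceed background, since Kdm5d read 4.05 to 4.13 there, which leaves the size of the Cd3d difference uncertain. The part of T cells in the Gimap values was not tested.

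Of 12 B and plasma cell genes 0 passed, 3 had an unadjusted p under 0.05, and the median was 0.01. The list's mean signal was 5.56 to 6.12 in p65 KO and 5.64 to 6.19 in p65 WT, with overlap. The lowest p of this list was that of Vpreb3, a gene of B cell precursors. Vpreb3 had signals of 7.92, 8.70 and 7.51 in p65 KO, against 6.39, 7.42 and 7.45 in p65 WT, higher without overlap but short of the threshold (limma adjusted p = 0.192). Blk (log2 fold change -0.44, limma adjusted p = 0.222) and Sdc1 (-0.32, limma adjusted p = 0.225) also had an unadjusted p under 0.05. Both were lower in p65 KO without overlap, and 7.76% of all genes were lower at an unadjusted p under 0.05. Jchain encodes the joining chain of secreted antibodies. Its signals were 3.37, 3.45 and 3.13 in p65 KO, against 5.13, 3.21 and 7.12 in p65 WT. The p65 KO values are not shown to exceed the background read from the Y-linked genes. The Jchain groups overlapped (limma adjusted p = 0.231). Jchain was highest in p65 WT replicate 3, as were Gimap1, Gimap4, Gimap5 and Gimap6, while Gimap3 and Gimap7 had their lowest wild-type signal there. In the same list Mzb1 read 5.78, 5.29 and 6.41 in p65 WT, with overlap (log2 fold change -0.11). Sdc1 read 5.56, 5.52 and 5.37 in p65 WT, lowest in replicate 3. The part of plasma cells in these values was not tested. Of 8 NK cell genes 1 rose, Nkg7 (log2 fold change 1.09, limma adjusted p = 0.0483), which neutrophil precursors also express, and the list's median was -0.25, or -0.15 without p65 WT replicate 1. Its mean signal was 4.99 to 5.02 in p65 KO and 5.02 to 5.22 in p65 WT.

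Genes of neutrophil and monocyte precursors were higher in p65 KO. Of 12, 11 rose past the threshold and 0 fell, where 0.687% of all genes rose. Their mean signal lay between 9.15 and 9.54 in p65 KO and between 6.93 and 7.05 in p65 WT. Elane, the neutrophil elastase gene, rose by 3.98 on the log2 scale (SE 0.21) and Hp, the haptoglobin gene, by 3.86 (SE 0.19). For Ctsg (cathepsin G) the rise was 2.80, and for Ly86, which encodes a partner of a Toll-like receptor relative, it was 3.07. The part of a shift towards these cells in the lower Gimap values was not tested. Of 8 macrophage genes 0 passed, and 1 was lower at an unadjusted p under 0.05, as were 7.76% of all genes. The list's median was -0.19, or -0.06 without p65 WT replicate 1, with mean signals of 5.02 to 5.26 in p65 KO and 5.09 to 5.55 in p65 WT.

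Stem cell genes had mostly lower values in p65 KO, 9 of 11 measured, where 54.1% of all genes were lower. Of the 11, Hlf, a transcription factor gene of stem cells, fell (log2 fold change -1.27, SE 0.22, limma adjusted p = 0.0485), 0 rose and 10 did not pass, where 0.13% of all genes fell. The list's median was -0.39, with mean signals of 7.97 to 8.20 in p65 KO and 8.23 to 8.76 in p65 WT. Without p65 WT replicate 1, 7 of the 11 stem cell genes fell (1.38% of all genes) and the median was -0.59. With the replicate number as a block 2 of the 11 fell (0.451% of all genes), Hlf (limma adjusted p = 0.0151) and Mecom, a regulator of stem cell self-renewal (log2 fold change -1.22, limma adjusted p = 0.0916 without the block and 0.0268 with it). Of 8 endothelial genes 0 passed, and 2 were lower at an unadjusted p under 0.05, as were 7.76% of all genes. The median of the endothelial list was -0.29, with mean signals of 5.94 to 6.12 in p65 KO and 6.31 to 6.62 in p65 WT. Its lowest p was that of Esam, which encodes an adhesion molecule of endothelial junctions that stem cells also carry. Esam had 5.42, 5.91 and 5.60 in p65 KO, against 6.59, 6.43 and 6.63 in p65 WT (log2 fold change -0.91, limma adjusted p = 0.0535). It passed with the block (limma adjusted p = 0.0427) and without p65 WT replicate 1 (limma adjusted p = 0.0333). Emcn, an endothelial sialomucin gene that stem cells also express, had 5.72, 5.80 and 5.86 in p65 KO, against 7.06, 6.59 and 8.16 in p65 WT. It missed the threshold (limma adjusted p = 0.0896, and 0.0681 without p65 WT replicate 1), passed with the block (limma adjusted p = 0.0283), and like Gimap5 was highest in p65 WT replicate 3. The parts of stem and endothelial cells in the Gimap values were not tested.

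**Figure D3:**
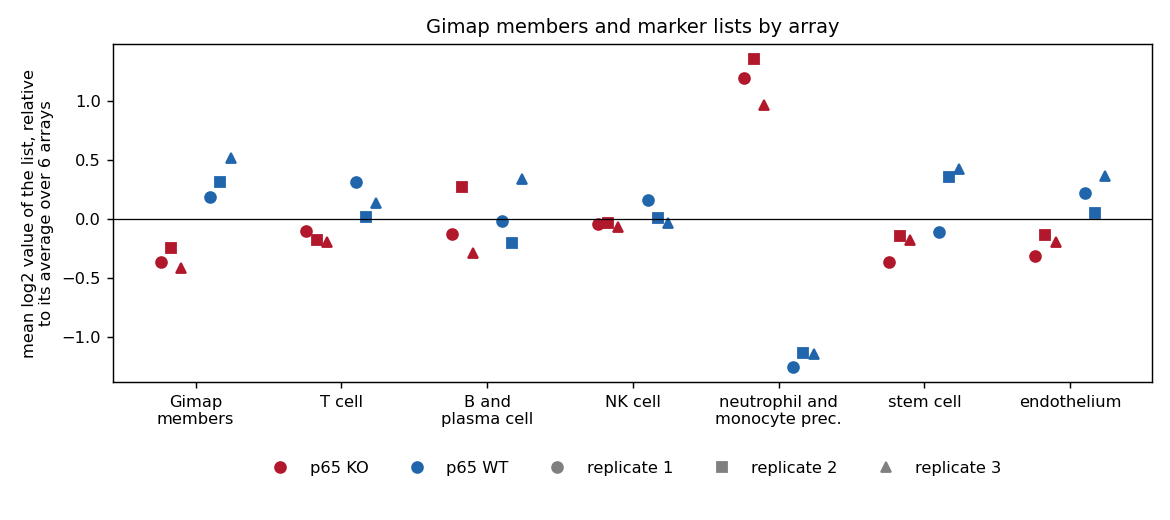
Mean log2 value of each gene list per array, relative to the list's average over the 6 arrays (y axis), for p65 KO (red) and p65 WT (blue), with point shape giving the replicate number. The Gimap members lie at -0.41 to -0.24 in p65 KO and 0.19 to 0.52 in p65 WT. T cell, stem cell and endothelial genes also lie lower in p65 KO, as do NK cell genes by a very narrow margin. Neutrophil and monocyte precursor genes lie far higher in p65 KO.

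The genes nearest to Gimap8 in pattern were found by the root mean square difference of log2 values over the 6 arrays, each gene centred on its mean. They were Fxyd1 (0.122), Dcpp2 (0.124), Airn (0.125), Mpped2 (0.125) and Pdgfd (0.129). Fxyd1 encodes phospholemman, a regulator of the sodium pump, and had signals of 5.49, 5.38 and 5.19 in p65 KO, against 6.42, 6.34 and 6.06 in p65 WT. Airn is an imprinted noncoding RNA gene, and Pdgfd encodes a platelet-derived growth factor with signals of 3.85, 3.70 and 3.63 in p65 KO, against 4.59, 4.66 and 4.60 in p65 WT. In p65 KO Pdgfd is not shown to exceed the background read from the Y-linked genes. Nor is Dcpp2 in any array, at 2.31 to 2.80 in p65 KO and 3.25 to 3.63 in p65 WT. None of the other Gimap genes was as near, since their differences from Gimap8 ran from 0.247 for Gimap4 to 0.613 for Gimap9. Nearest to the mean of the 8 members were Spaca9 (0.0371), Pard3b (0.0391), Slc22a7 (0.0591), Vmo1 (0.0744) and Pnck (0.0755). In p65 KO Vmo1, at 3.93 to 4.08, is not shown to exceed background, and Slc22a7, at 4.22 to 4.30, lies near it. Pard3b, a cell polarity gene, had 5.98, 6.08 and 5.92 in p65 KO, against 6.61, 6.65 and 6.81 in p65 WT. With 2 groups of 3 arrays, many genes that separate the groups by a like amount come close on this measure.

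**Figure D4:**
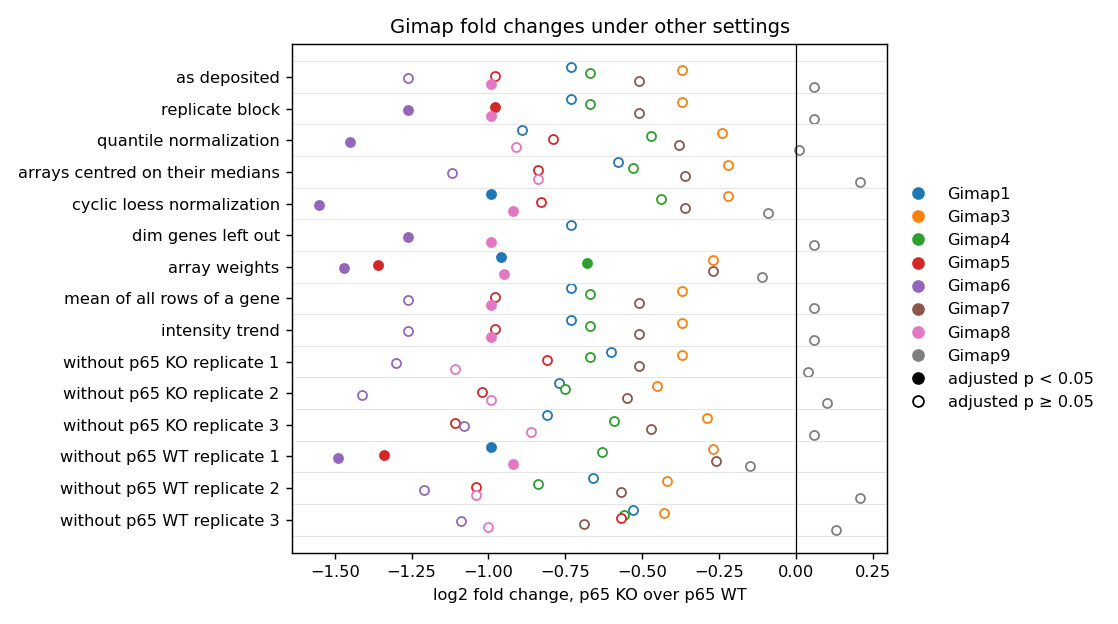
Log2 fold change of p65 KO over p65 WT (x axis) of each Gimap gene on the deposited values and under 14 other settings (rows), with filled points at a limma adjusted p under 0.05. All settings leave Gimap1, Gimap3, Gimap4, Gimap5, Gimap6, Gimap7 and Gimap8 below 0 where they were measured, while Gimap9 lies from -0.15 to 0.21 and the set of filled points changes between settings.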

How the data were processed

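Per the labels' protocols, cells were sorted into lysis buffer, and their RNA, after extraction with a Qiagen kit, was amplified by NuGEN's Ovation Pico chemistry. The deposited values are log2 signals, in 1 table over 6 arrays. RMA, Partek and Affymetrix Expression Console are listed in the submitters' processing notes, each without a version. The design text names an exon array, while rows were named through the annotation of a gene array, and which holds was not settled.

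Of 35557 rows, 21789 have 1 symbol, 1621 several and 12147 none listed. For 999 genes with several rows the one with the highest mean was kept, leaving 19938 genes. They were tested with limma 3.58.1 (R 4.3.3), two-sided, with 4 residual degrees of freedom. The test was also run on simulated data with independent noise. Those data held no outlying array and no shift with signal level, so the run does not show how the test behaves under either. The 14 alternatives were the replicate block, quantile, median-centred and cyclic loess scaling, dim genes left out, array weights, the mean over a gene's rows, an intensity trend, and each array left out in turn. The number of arrays limits the precision.

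Deviations of same-numbered arrays from their group means correlated at 0.368, 0.119 and 0.162, above the minimum of 0.1 for pairing, so blocked values are given where they change a call. The labels do not say what a number marks, and arrays 2 and 3 of opposite groups gave 0.183 and 0.195. Named genes were Rela, the members, up to 4 genes past the threshold per marker list, genes of the partner and flanking lists past the threshold or else the 3 with the smallest p, and the nearest genes. Outside this rule, and after their values were seen, Cd3d, Vpreb3, Blk, Sdc1, Jchain, Mzb1, Mecom, Esam and Emcn were named. The same holds for the adjacent genes, Gm5111, Doxl1 and the other partner genes. Members and lists were chosen with earlier results of these data known.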

Additional observations from a re-analysis of the deposited data

How the results depend on the processing

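The 3 arrays per group set what can be shown. All 7 lower members kept a negative log2 fold change under every one of the 14 alternatives that gave a value, while calls moved. The number of members past limma, 1 on the deposited values, was 3 with the replicate block, 3 with cyclic loess normalization, 5 with array weights, 2 of 4 without dim genes and 0 with arrays centred on their medians (3 at an unadjusted p under 0.05). Of all genes tested, the share that fell was 0.451% with the block, 0.351% with cyclic loess, 2.42% with array weights, 0.431% without dim genes and 0.0301% with centred arrays. With centred arrays 501 of 19938 genes were lower at an unadjusted p under 0.05. Leaving out 1 array gave 0 to 4 members, with 3 to 6 at an unadjusted p under 0.05, and 4 came without p65 WT replicate 1. Of all 19938 genes 0 to 276 then fell, and 663 to 2099 were lower at an unadjusted p under 0.05. Gimap8 kept its call in 7 of 14 alternatives (log2 fold change -1.11 to -0.84, limma adjusted p 0.00846 to 0.263). Gimap6 passed in 6 (limma adjusted p 0.00501 to 0.301), Gimap5 in 3, Gimap1 in 3, Gimap4 in 1, and Gimap3, Gimap7 and Gimap9 in 0. Gimap9 lay between -0.15 and 0.21 and turned negative with cyclic loess (-0.09), array weights (-0.11) and without p65 WT replicate 1 (-0.15). The median of the members, -0.70, was -0.55 with centred arrays, which adds 0.146 to every gene, -0.86 over the 4 members left without dim genes, and -0.77 to -0.56 when 1 array was left out. Of all genes, 163 passed (137 higher, 26 lower). The number was 372 with the replicate block (282 and 90), 104 with quantile normalization, 525 without dim genes, 1599 with array weights (1117 and 482), and 21 to 929 when 1 array was left out. The split was 186 and 6 with centred arrays and 149 and 70 with cyclic loess. The replicate block also added Gimap5 and Gimap6 and changed no other member's call. The cause was not tested.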
